A study of Macaca fascicularis with 9 samples.

Results

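Cluster 12 is the smaller of 2 clusters that the deposited annotation names astrocytes in single nuclei of cynomolgus monkey thalamus. Its members are all nuclei with the cell type name Astrocytes and the cluster number 12 in the deposited table of nuclei. It held 538 of 4411 astrocyte nuclei and of 79994 nuclei in all, and the other 3873 astrocyte nuclei were cluster 6. The study profiled 9 female animals with droplet libraries from 10x Genomics, in 3 groups of 3. The saline group received 4 biweekly intravenous doses of saline. The OTV group received 4 biweekly intravenous doses of OTV:MALAT1 at 30 mpk, an antisense oligonucleotide against the nuclear RNA MALAT1 carried by a vehicle that binds the transferrin receptor. The ASO group received a single intrathecal dose of 4 mg of MALAT1 antisense oligonucleotide, and no intrathecal vehicle group is among the samples analysed here. Thalamus was frozen 2 weeks after the last dose of each animal. Animals are named by group and replicate, such as Saline 2, with replicate numbers that only name an animal.

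Astrocytes are glial cells that clear glutamate from synapses through the transporters SLC1A2 and SLC1A3, buffer potassium, and exchange water with blood vessels through the channel AQP4 in their endfeet. They supply lipids to other cells in APOE particles and couple to each other through gap junctions. In the thalamus they surround relay neurons and lie beside many myelinated fibres, whose myelin is made by oligodendrocytes.

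The members came unevenly from the animals. Saline 1, 2 and 3 gave 9, 33 and 44 members, ASO 1, 2 and 3 gave 16, 0 and 53, and OTV 1, 2 and 3 gave 114, 5 and 264. As shares of the astrocytes of each animal these were 3.27%, 3.65% and 15.5% in saline, 2.33%, 0.0% and 10.7% in ASO, and 23.4%, 2.78% and 27.5% in OTV. The groups overlapped, since OTV 2 lay below all 3 saline animals, and OTV 1 and OTV 3 together gave 70.3% of the members. Shares were not tested, because a cut in depth can move them and the clusters differed in depth. Results by animal rest on the 6 animals with at least 10 members, which are Saline 2 and 3, ASO 1 and 3, and OTV 1 and 3, 2 animals in each group, with 524 members and 1215674 UMIs (unique molecular identifiers, counted RNA molecules).

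Low depth was the plainest property of the cluster. Its members had a median of 1935 UMIs and 1241.5 detected genes, against 8312 UMIs and 3252 genes in cluster 6. Only OPC cluster 14, with 1847 UMIs, had a lower median among the 17 clusters. In each of the 8 animals with members, cluster 12 had the lower median, by 2.03 times in OTV 3 up to 5.46 times in ASO 1. Saline 2 had medians of 2100 and 10304.5 UMIs in clusters 12 and 6, Saline 3 of 3344 and 6946.5, ASO 1 of 1833 and 10011, ASO 3 of 1513 and 7839.5, OTV 1 of 3381 and 9151, and OTV 3 of 1831 and 3725. The distributions overlapped in part: 54.6% of members and 0.0% of cluster 6 nuclei had at most 2000 UMIs, and 89.8% and 11.9% had at most 4000, with members reaching 6664 UMIs and cluster 6 starting at 2024. At most 0.143% of the cluster 6 nuclei of an animal lay at or below the upper quartile of its cluster 12 nuclei, a share seen in OTV 3. Depth also set the cluster apart from whole libraries, with medians of 29.3% to 71.0% of the median of all nuclei of the same animal.

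**Figure D1:**
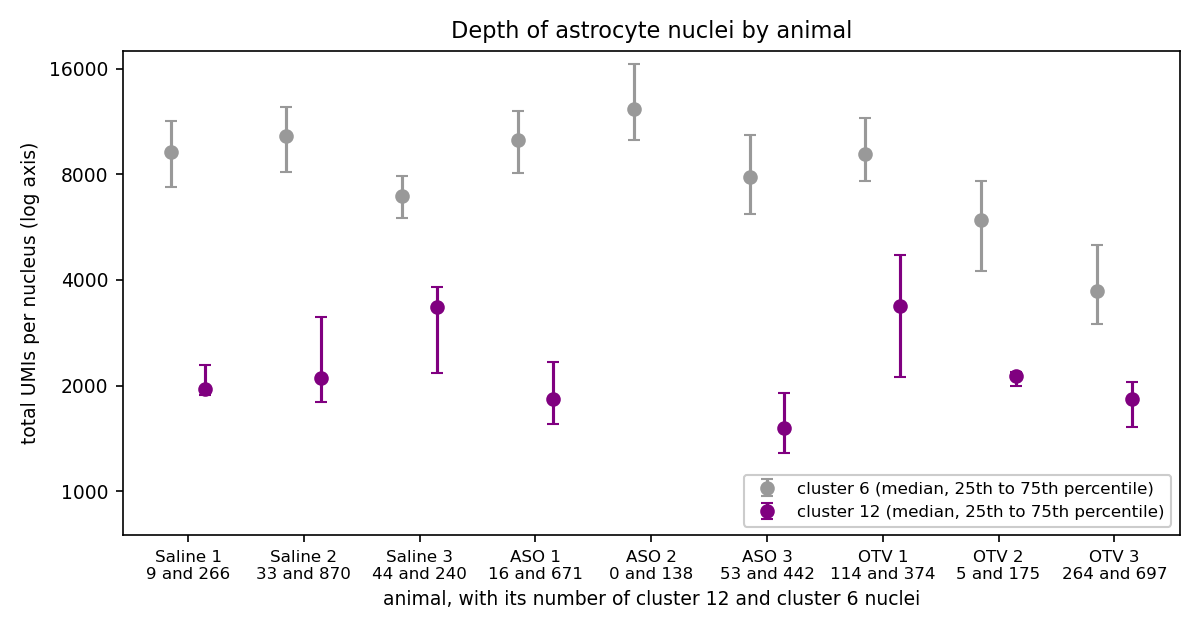
Total UMIs per nucleus on a log axis for cluster 12 (purple) and cluster 6 (grey) astrocytes in each of the 9 animals, with points at the median and bars from the 25th to the 75th percentile. The number of nuclei of each cluster stands under each animal, and cluster 12 lies lower in all 8 animals that have members.

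Doublet scores were low. All deposited nuclei carry the authors' label singlet, but which tool scored them is not stated by the labels or files. The median score was 0.00023 in cluster 12, 0.000785 in cluster 6 and 0.000835 in all nuclei. Above the 90th percentile of scores in the series lay 11 of 538 members (2.04%, 95% Wilson interval 1.15 to 3.62) and 34 of 3873 cluster 6 nuclei (0.878%), with the highest member at 0.601. Of these 11 members 5 came from Saline 3, 3 from OTV 1, 2 from OTV 3 and 1 from Saline 1. Barcodes that also occur in another library made up 1.86% of members, 1.78% of cluster 6 and 1.9% of all nuclei. In the deposited clustering at resolution 0.1, all 538 members shared a cluster with 3870 of the 3873 cluster 6 nuclei, and at resolution 0.2 they shared none with cluster 6.

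The astrocyte label held for the members. After each nucleus was thinned to 1000 UMIs, which sets all nuclei to the same depth, SLC1A2 was found in a median over 6 animals of 94.6% of members, with a range of 81.2% to 100%. The same share was 95.4% in cluster 6, 2.74% in oligodendrocytes and 3.7% in myeloid nuclei, which should lack the gene. AQP4 was found in 32.3% of thinned members, 30.4% of cluster 6, 1.81% of oligodendrocytes and 1.83% of myeloid nuclei. Without thinning, the AQP4 shares were 55.6% and 89.3% in clusters 12 and 6, at median depths of 1929 and 8232 UMIs. Thinning left out no member, since the shallowest had 1101 UMIs. Every member had at least 3 UMIs from the 16 measured astrocyte markers, with a median of 33, and in 3 of the 538 members oligodendrocyte markers gave more UMIs than astrocyte markers.

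Summed over the 16 astrocyte markers, cluster 12 reached 14200 and 30200 CPM (UMIs of a gene per 1000000 UMIs of the sum) in Saline 2 and 3, 14800 and 28300 in ASO 1 and 3, and 16300 and 15800 in OTV 1 and 3. Cluster 6 reached 16500, 37800, 14800, 32800, 19100 and 20600 CPM in the same order. Both clusters were high in Saline 3 and ASO 3, so the animals differed more from each other than the clusters did within an animal. Markers of most other cells were scarce: the 9 myeloid markers summed to between 22.9 and 218 CPM in cluster 12, against 4910 to 6780 CPM in myeloid nuclei. Of the endothelial, mural and fibroblast, and T cell lists, 2 of 6, 3 of 7 and 1 of 6 markers had 0 UMIs in the cluster. These were PECAM1 and CDH5, then COL1A2, COL1A1 and LUM, and then IL7R. The mural and fibroblast list summed to 164 to 337 CPM, with 170 to 265 CPM in cluster 6. Oligodendrocytes held 13.3 to 27.0 CPM of that list. The neuron list summed to 60.5 to 646 CPM and the ependymal list to 212 to 289 CPM, with no marker at 0. The OPC and oligodendrocyte lists (OPCs are oligodendrocyte precursor cells) were higher, also with no marker at 0. The 9 OPC markers summed to 1230 to 3000 CPM in cluster 12 and 1470 to 2630 CPM in cluster 6, against 16000 to 20800 CPM in OPC cluster 4. The 11 measured oligodendrocyte markers summed to 1010, 1150, 937, 1780, 1940 and 1720 CPM in cluster 12 and to 544, 462, 599, 785, 890 and 881 CPM in cluster 6, and cluster 12 was higher in all 6 animals. Myeloid nuclei, which should lack these genes too, held 1060, 1140, 1100, 1380, 2200 and 2050 CPM, close to cluster 12 in each animal, while oligodendrocytes held 10400 to 12800 CPM.

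**Figure D2:**
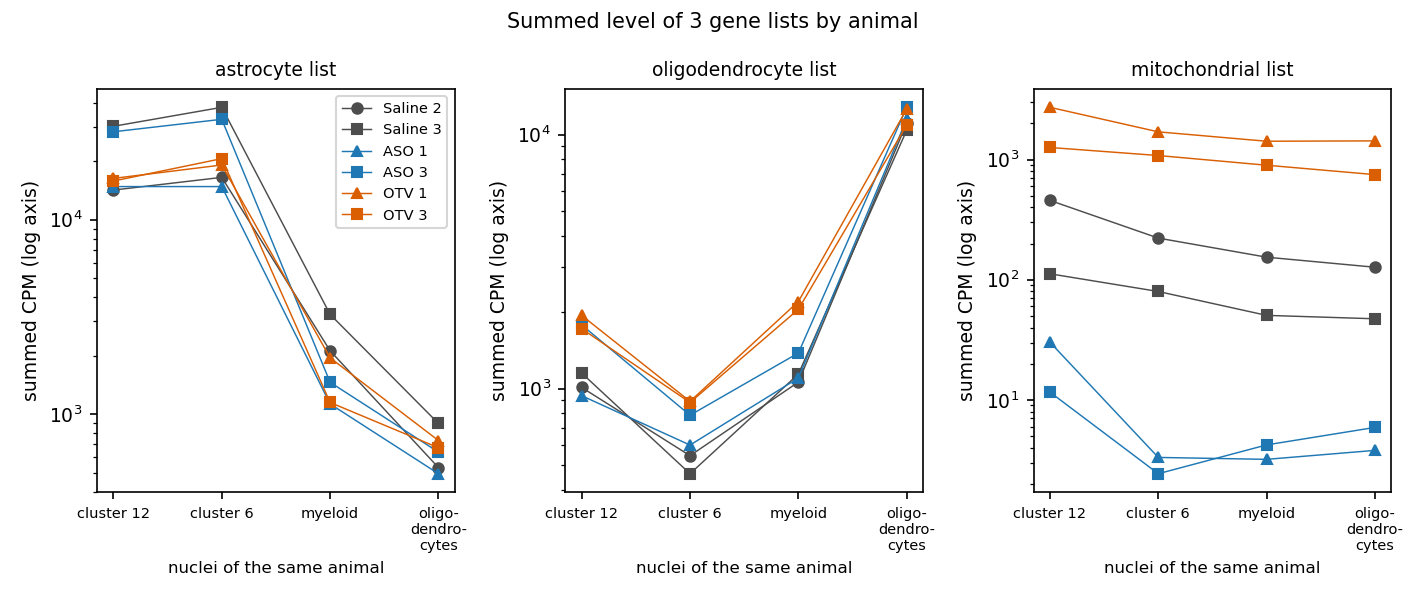
Summed CPM on log axes of the astrocyte, oligodendrocyte and mitochondrial gene lists in cluster 12, cluster 6, myeloid nuclei and oligodendrocytes, with 1 line for each of the 6 animals. Astrocyte genes reach 14200 to 30200 CPM in cluster 12 and are lower than in cluster 6 in 5 of 6 animals, and cluster 12 carries oligodendrocyte genes at the level of myeloid nuclei (937 to 1940 CPM).

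Genes of cluster 12 were set beside cluster 6 of the same animal as the log2 ratio of CPM + 5, averaged over the 6 animals. These ratios are a description without a test, because the clustering used these nuclei and their genes. Of 7628 features with a mean of at least 20 CPM in either cluster, 337 (4.42%) were higher and 259 (3.4%) were lower in cluster 12 in all 6 animals, with a median log2 ratio of -0.05. Of the 1007 features at 200 CPM or more, 51 (5.06%) were higher and 109 (10.8%) lower. Scaling by TMM factors in place of total UMIs moved the ratios by a median of -0.226 and gave 127 higher and 1006 lower, or 15 and 420 of the features at 200 CPM or more. Of the 78 named genes with 1 sign in all 6 animals, MALAT1 alone changed the sign of its mean with TMM factors, and small ratios are best read relative to that shift.

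Of the 16 astrocyte markers, 11 showed no common direction over the 6 animals, 2 were higher and 3 lower, where 4.42% and 3.4% of all features were. FGFR3, a fibroblast growth factor receptor of astrocytes, measured 526, 470, 423, 476, 484 and 582 CPM in cluster 12 of Saline 2, Saline 3, ASO 1, ASO 3, OTV 1 and OTV 3, and 336, 322, 289, 259, 371 and 519 CPM in cluster 6. Its mean log2 ratio was 0.52 ± 0.24 (SD, n = 6), and after thinning it was found in a median of 43.5% of members and 27.1% of cluster 6 nuclei. GPC5, a heparan sulfate proteoglycan abundant in astrocytes, measured 2721, 5019, 3568, 2835, 5101 and 5453 CPM in cluster 12 and 4178, 7127, 4092, 4141, 6800 and 7593 CPM in cluster 6. It was lower in all 6 animals, with a mean log2 ratio of -0.46 ± 0.15 (SD, n = 6). ALDOC, an aldolase of astrocyte glycolysis, was higher in all 6 (0.59), and the bicarbonate transporter SLC4A4 (-0.28) and the BMP receptor BMPR1B (-0.24) were lower in all 6. The median of the astrocyte list was -0.09. With TMM factors 1 was higher, 5 were lower and the median was -0.34, where the median of all features was -0.27.

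The glutamate transporter SLC1A2 measured 3681, 11100, 3749, 11920, 5157 and 4185 CPM in cluster 12 and 4559, 14030, 3214, 13160, 5824 and 5744 CPM in cluster 6. It was lower in 5 of 6 animals and slightly higher in ASO 1, with a mean log2 ratio of -0.20 ± 0.24 (SD, n = 6). AQP4 averaged -0.09 ± 0.32 and was higher in 2 of 6. The adhesion receptor ADGRV1 showed the spread between animals best, with 274, 6977, 0.0, 6668, 43.3 and 29.5 CPM in cluster 12 and 423, 8631, 75.5, 8225, 24.0 and 62.6 CPM in cluster 6. Saline 3 and ASO 3 were thus high in both clusters, across the treatment groups. The same 2 animals were highest for a list of 9 telencephalic patterning factors, at 1180 and 1240 CPM in cluster 12 against 247 to 423 CPM in the other 4. Cluster 6 gave 1240 and 1260 CPM against 280 to 516 CPM.

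Among functional groups, a few genes of each list went 1 way in all 6 animals, to be read beside the 4.42% of all features that were higher and the 3.4% that were lower (5.06% and 10.8% at 200 CPM or more). In the gap junction and adhesion list, 3 of 10 genes at 20 CPM or more were lower in all 6 animals and 0 higher: the cadherins CDH2 (-0.37) and CDH20 (-0.31) and the catenin CTNND2 (-0.24). Their list median was -0.20, and with TMM factors 8 of 10 were lower, a scaling under which 420 of the 1007 features at 200 CPM or more were lower too. In the potassium, water and endfoot list, 2 of 13 were lower, SLC4A4 and the dystrobrevin DTNA (-0.19), and 0 higher, with a median of -0.09. In glutamate and GABA handling, 1 of 9 was higher in all 6 animals and the list median was -0.06, but with TMM factors 0 were higher and 2 lower. Of the lipid, glycogen and energy list, 2 of 9 were higher, ALDOC and APOE (0.75), with a list median of 0.21. With TMM factors 0 of these 9 were higher in all 6 animals, 2 were lower, and the median was -0.03. Of glial transcription factors, 2 of 8 were lower, ZBTB20 (-0.31) and NFIA (-0.20), and 0 were higher, with a median of -0.17. In the fibrous and reactive astrocyte list, 0 of 6 went 1 way in all animals, and GFAP, the intermediate filament of fibrous and reactive astrocytes, averaged 0.02 ± 0.62 (SD, n = 6).

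APOE, the lipid carrier of astrocytes, measured 1966, 554, 1512, 1987, 153 and 63.3 CPM in cluster 12 of Saline 2, Saline 3, ASO 1, ASO 3, OTV 1 and OTV 3, and 840, 505, 881, 504, 125 and 56.6 CPM in cluster 6. Cluster 12 was higher in all 6, by the widest margin in ASO 3 and by little in Saline 3, OTV 1 and OTV 3. AGT, the precursor of angiotensin made by astrocytes, averaged 245 and 148 CPM (0.63). The metallothionein MT1E averaged 249 and 115 CPM (0.88). CIRBP, a cold-inducible RNA-binding protein, averaged 225 and 132 CPM (0.68).

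Several oligodendrocyte genes were higher in cluster 12. Of the 11 oligodendrocyte markers, 6 were higher in all 6 animals and 0 lower, with a median log2 ratio of 0.86 against -0.05 over all features. With TMM factors 2 of 11 were higher in all 6 and the median was 0.65. MOG, a glycoprotein on the outer surface of myelin, measured 34.3, 70.2, 30.2, 81.3, 81.6 and 97.0 CPM in cluster 12 and 20.2, 22, 22.7, 33.8, 36.7 and 31.2 CPM in cluster 6, with a mean log2 ratio of 1.03 ± 0.46 (SD, n = 6) from 99 UMIs in cluster 12. Its levels stand for 3 UMIs in Saline 2 and 1 UMI in ASO 1, so its sign in ASO 1 rests on 1 molecule. After thinning, MOG was found in a median of 7.01% of members, 2.53% of cluster 6 nuclei, 5.82% of myeloid nuclei and 55.4% of oligodendrocytes. The transcription factor ST18 (1.34) and the myelin genes CNP (1.05), CLDN11 (1.04) and MAG (0.86) were also higher in all 6 animals. TF, the iron carrier transferrin made by oligodendrocytes, measured 206, 112, 212, 360, 224 and 181 CPM in cluster 12 and 64.2, 59.0, 103, 88.4, 133 and 102 CPM in cluster 6, a mean log2 ratio of 1.16. Summed oligodendrocyte markers were spread over members: per 1000 UMIs the median was 1 UMI in cluster 12 and 0 in cluster 6, and 1 of 524 members had over 10. The part of free RNA or of a second nucleus in these values was not tested.

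Many of the features with the largest ratios rested on few molecules. The leading 15 higher genes with a symbol included the ribosomal protein gene RPS26 (1.54, from 26 UMIs in cluster 12), the secreted phosphoprotein SPP1 (1.45, 162 UMIs), the perinodal link protein HAPLN2 (1.44, 172 UMIs), the ribonuclease RNASE1 (1.40, 27 UMIs), and the myelin-related genes MYRF (1.32), MAL (1.28) and ENPP2 (1.13, 177 UMIs). SPP1 measured 206, 63.2, 151, 163, 163 and 110 CPM in cluster 12 and 47.9, 20.2, 50.1, 48.9, 83.2 and 44.2 CPM in cluster 6. The leading lower genes ran from MSRB2 (-1.69, 26 UMIs in cluster 12) to SEPSECS (-1.27, 10 UMIs), and both had 0 UMIs in some animals. Among features at 200 CPM or more, chosen as a second view after these values were seen, TF, NKAIN2 (1.10), SPOCK3 (1.10) and EDIL3 (0.96) were among the higher ones. LHFPL6 (-0.65), LUZP2 (-0.64), ELP4 (-0.64), EYA1 (-0.62) and NALF1 (-0.61) led the lower ones. Of the higher genes, NKAIN2, SPOCK3 and EDIL3 averaged 300, 200 and 224 CPM in cluster 12. In oligodendrocytes outside cluster 8 they were far higher, with means of 4330, 2370 and 2820 CPM over 8 animals. Among the leading 15 higher and 15 lower genes of this view, UNC5D, a netrin receptor, was the steadiest, with a log2 ratio of -0.47 ± 0.07 (SD, n = 6). Among unnamed features at 200 CPM or more that were higher in all 6 animals, ENSMFAG00000050500 and ENSMFAG00000049145 had the largest ratios. They averaged 1249 and 5268 CPM in cluster 12 against 489 and 2473 CPM in cluster 6, log2 ratios of 1.26 and 1.03.

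**Figure D3:**
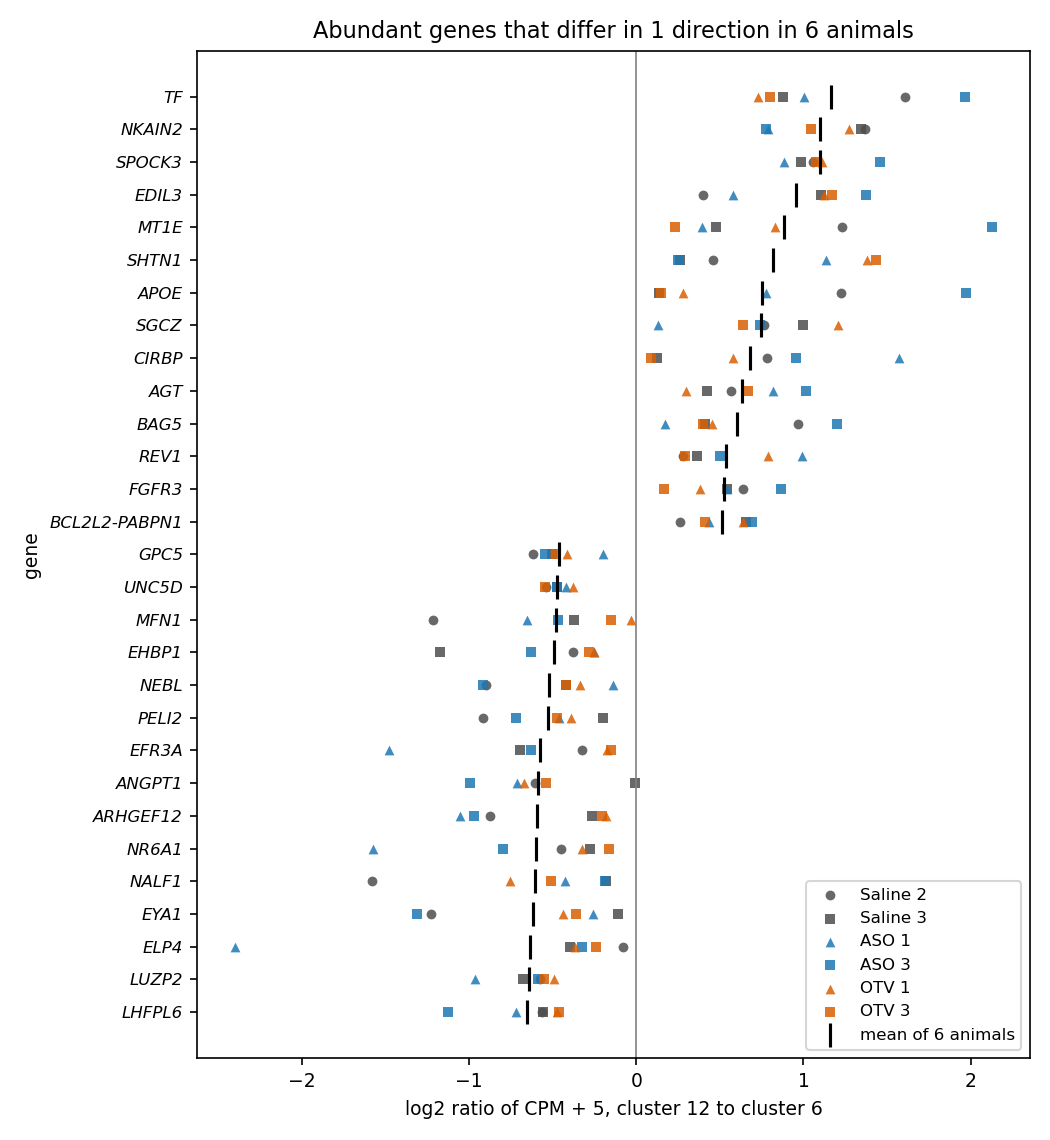
Log2 ratio of CPM + 5 of cluster 12 to cluster 6 for 14 of the 15 higher and all 15 lower abundant genes with the largest mean ratio and 1 sign in all 6 animals, with 1 point for each animal and a bar at the mean. Means run from -0.65 for LHFPL6 to 1.16 for TF, and UNC5D has the tightest points.

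Transcripts of the mitochondrial genome had higher sums in most animals, but of 9 mitochondrial genes at 20 CPM or more 0 were higher and 0 lower in all 6, with a median log2 ratio of 0.24 (0.13 with TMM factors). The 13 mitochondrial genes, a list added after their values were seen, summed to 457 and 112 CPM in cluster 12 of Saline 2 and 3, 30.2 and 11.6 in ASO 1 and 3, and 2720 and 1260 in OTV 1 and 3. Cluster 6 held 222, 79.8, 3.32, 2.43, 1700 and 1080 CPM. Cluster 12 was higher in all 4 saline and OTV animals, and its values in ASO 1 and ASO 3 rest on 1 UMI each. OTV animals lay far above the others in both clusters. They were also the highest in myeloid nuclei, with 154, 50.5, 3.20, 4.22, 1420 and 897 CPM. Within cluster 12, the less deep part of the nuclei of each animal had the higher mitochondrial sum in all 4 saline and OTV animals, the higher oligodendrocyte sum in 5 of 6 and the higher astrocyte sum in 2 of 6.

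Other clusters of low depth shared some of these differences. Oligodendrocyte cluster 8, set beside the other oligodendrocyte clusters, had a mitochondrial log2 ratio of 0.76 ± 0.45 (SD) and was higher in 8 of 8 animals. OPC cluster 14 beside OPC cluster 4 had 1.26 ± 1.24 and was higher in 5 of 6. Neither comparison includes OTV 3, and both include Saline 1, which the astrocyte values leave out. Saline 1 had the largest OPC ratio, 8.42-fold, with mitochondrial sums of 1620 and 188 CPM in OPC clusters 14 and 4. The value for astrocyte cluster 12 was 0.94 ± 0.66 over 6 animals, with the 1 UMI in each ASO animal included. The summed unnamed features, which were chosen for their ratio in astrocytes, gave 1.09 in astrocytes, 0.894 in oligodendrocytes and 1.48 in OPCs. APOE averaged 0.77 in the oligodendrocyte comparison and 1.42 in the OPC comparison. Of the 15 abundant lower genes, 5 were lower in OPC cluster 14 in 6 of 6 animals: LHFPL6, LUZP2, NALF1, UNC5D and NEBL. The others were higher there in at least 1 animal, with means above 0 for ELP4 (0.04) and GPC5 (0.25) alone. APOE and these 5 genes were picked for their values here, and no share over all features stands beside them. In oligodendrocyte cluster 8 the means of the 5 genes were above 0, with log2 ratios from 0.01 for LHFPL6 (higher in 5 of 8 animals) to 0.46 for UNC5D (7 of 8). No test compared the 3 cell types.

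Cluster 6 nuclei as shallow as the members were few. Within the range from the 5th to the 95th percentile of member UMIs of the same animal lay 102 of 3294 cluster 6 nuclei, and Saline 3, OTV 1 and OTV 3 had enough of them to compare, with 53, 16 and 28. Even there the medians differed, at 3344 and 5106 UMIs in Saline 3, 3381 and 5377.5 in OTV 1, and 1830 and 2258 in OTV 3. Of the 15 abundant higher genes, 7 were higher in all 3 animals and 14 had a mean log2 ratio above 0, with a median of 0.457 against 0.568 for all nuclei of these 3 animals. Of the 15 abundant lower genes, 9 were lower in all 3 animals and 12 had a mean below 0, with medians of -0.265 and -0.391. Both sets were chosen for 1 sign in all 6 animals, which include these 3 with most of the same members. The signs kept are thus partly set by that choice, and no share over all features at like depth stands beside them. The summed oligodendrocyte markers gave 0.616 against 1.13, the mitochondrial genes 0.342 against 0.458, and the astrocyte markers -0.16 against -0.311. GPC5 went from -0.47 to -0.11, FGFR3 from 0.36 to 0.27 and TF from 0.80 to 0.81. At like depth FGFR3 was below 0 in OTV 3 (-0.105). The TF value rests on 14, 13 and 7 cluster 6 UMIs in Saline 3, OTV 1 and OTV 3. APOE went from 0.19 to 0.07 with 2 of 3 animals above 0.

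MALAT1, the target of both oligonucleotides, made up a large share of nuclear RNA. In cluster 12 it took 6.90% and 5.18% of UMIs in Saline 2 and 3, 5.00% and 8.04% in ASO 1 and 3, and 4.79% and 4.06% in OTV 1 and 3. The group means were 6.04% ± 1.22 (SD, n = 2), 6.52% ± 2.15 (SD, n = 2) and 4.42% ± 0.515 (SD, n = 2), which put OTV at 73.2% and ASO at 108% of saline. Both OTV animals lay below the other 4 animals, although OTV 1 and ASO 1 differed by little. The exact two-sided permutation test over the 3 groups gave p = 0.333, where 15 arrangements allow no p below 0.0667. For the pairs the exact permutation p was 0.333 for OTV against saline, the smallest that 6 splits allow, 0.333 for OTV against ASO, and 1.0 for ASO against saline. The animals with fewer than 10 members had 9.95% (Saline 1, 9 members) and 3.67% (OTV 2, 5 members). With these 2 animals added, OTV animals were again the 3 lowest and the exact permutation p over 3 groups was 0.157. No member lacked MALAT1 UMIs.

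Cluster 6 of the same animals gave MALAT1 shares of 5.94% and 4.62% in saline, 4.95% and 6.24% in ASO and 4.58% and 3.96% in OTV, with OTV at 80.9% and ASO at 106% of saline. Scaled by total UMIs, MALAT1 was higher in cluster 12 than in cluster 6 in all 6 animals, by a log2 ratio of 0.0145 to 0.366, and with TMM factors the mean ratio was -0.11. The mean ratio of the saline animals was 0.191, that of the ASO animals 0.19 and that of the OTV animals 0.0493, and the exact permutation test over 3 groups gave p = 0.6. In edgeR's quasi-likelihood fit over all genes, MALAT1 in cluster 12 of OTV animals had a log2 fold change of -0.47 relative to saline (SE 0.39, adjusted p = 0.614) and of -0.58 relative to ASO (SE 0.39, adjusted p = 0.506). The change in ASO animals relative to saline was 0.11 (SE 0.39, adjusted p = 1.0). With the animals of 5 and 9 members added, edgeR gave -0.90 for OTV relative to saline (SE 0.41, unadjusted p = 0.0393, adjusted p = 0.295). None of these edgeR tests of MALAT1 passed an adjusted p of 0.05.

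**Figure D4:**
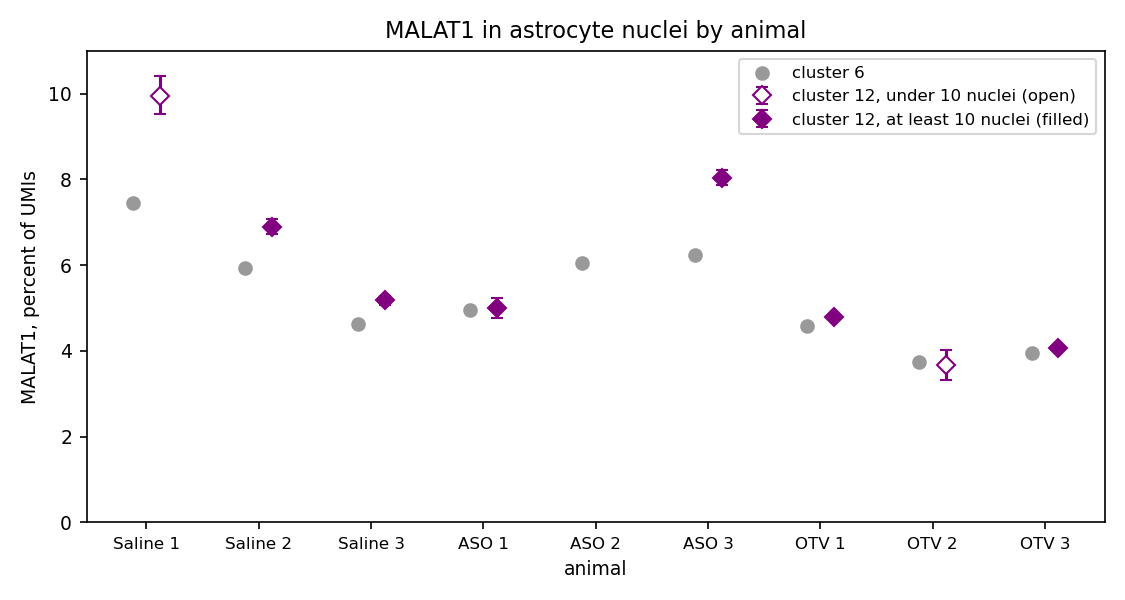
MALAT1 as a percentage of UMIs in cluster 12 (diamonds, with 95% Wilson intervals that cover counting error only) and cluster 6 (grey circles) of each animal. Open diamonds are animals with under 10 members, and ASO 2 has none; OTV animals lie between 3.67% and 4.79% in cluster 12.

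Treatment contrasts were fitted with edgeR on the UMIs summed over the members of each of the 6 animals, for 3176 features. OTV is compared with saline and with ASO below, and these comparisons share the OTV animals. For ASO against saline, edgeR called 0 features (0.0%) at an adjusted p under 0.05, with 117 at an unadjusted p under 0.05, and the DESeq2 Wald test also called 0, with 49 at an unadjusted p under 0.05. Without Saline 3 the count was 10 and without Saline 2 it was 1. For OTV against saline edgeR called 50 features (1.57%), 19 higher (0.598%) and 31 lower (0.976%), and 460 had an unadjusted p under 0.05. For OTV against ASO it called 54 (1.7%), 24 higher (0.756%) and 30 lower (0.945%). Without 1 animal the number of features tested changed from 3176 to 4509 without ASO 1, 4691 without ASO 3 and 4705 without Saline 2. It was 3266 without Saline 3 and 3252 without OTV 3. Beside that, single animals moved the counts of calls by over 1.5 times. Against saline the count was 222 without Saline 2, 90 without Saline 3, 107 without ASO 1, 98 without ASO 3 and 26 without OTV 3. Against ASO it was 279 without Saline 2, 229 without Saline 3, 10 without ASO 3 and 19 without OTV 3. In the deeper cluster 6 of the same animals, 13971 features were tested. There edgeR called 0 (0.0%) between ASO and saline, with 699 at an unadjusted p under 0.05. Between OTV and saline it called 409 (2.93%), 99 higher (0.709%) and 310 lower (2.22%), and between OTV and ASO 1445 (10.3%), 503 higher (3.6%) and 942 lower (6.74%).

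Genes called lower after OTV included several that were low relative to total UMIs in both OTV animals. The genes named for each contrast were chosen for no overlap of the groups compared, so that gap is no separate result. PRKCQ, the theta isoform of protein kinase C, measured 423 and 505 CPM in Saline 2 and 3, 1150 and 651 CPM in ASO 1 and 3, and 20.4 and 25.3 CPM in OTV 1 and 3. It fell by 4.33 on the log2 scale against saline (SE 0.43, edgeR adjusted p = 0.000637) and fell by 5.21 against ASO (SE 0.44, adjusted p = 0.000148), with no overlap of the groups. REEP5, a protein that shapes the endoplasmic reticulum, measured 320, 365, 333, 441, 48.4 and 80.1 CPM in the same order, a log2 change of -2.42 against saline (edgeR adjusted p = 0.014). MCMDC2, a meiotic recombination protein with an MCM domain, measured 137, 126, 151, 139, 10.2 and 10.5 CPM (-3.61, edgeR adjusted p = 0.0091). OTV animals were the lowest for both genes. FGL1, a fibrinogen-like secreted protein, was at 114, 105, 121, 163, 12.7 and 8.43 CPM and fell by 3.77 against ASO on the log2 scale (edgeR adjusted p = 0.0203).

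DPP10, an auxiliary subunit of Kv4 potassium channels, measured 469, 2200, 937, 523, 33.1 and 44.3 CPM, a log2 change of -5.12 against saline (edgeR adjusted p = 0.0162). WDR49, a WD repeat protein, measured 149, 190, 0.0, 92.9, 2.55 and 8.43 CPM (-4.78 against saline, edgeR adjusted p = 0.0145), with ASO 1 as low as OTV. These 2 genes did not follow the third OTV animal: cluster 6 of OTV 2 held 1100 CPM of DPP10 and 228 CPM of WDR49, inside the range of saline and ASO animals for DPP10 and above it for WDR49. With the 2 animals of 5 and 9 members added, the DPP10 change was -0.69 (edgeR adjusted p = 0.93) and that of WDR49 was -2.76 (edgeR adjusted p = 0.555).

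Of the named lists, the astrocyte list had 1 of 14 tested members called for OTV against saline, AQP4, which fell, and 0 that rose. The list median was -0.65 against -0.02 over all features tested, and 5 of the 14 had an unadjusted p under 0.05. They went both ways, with negative log2 changes for AQP4, SLC1A3 and BMPR1B and positive ones for the folate enzyme ALDH1L1 (1.25, edgeR adjusted p = 0.185) and for NDRG2 (0.85, adjusted p = 0.289). In cluster 6 ALDH1L1 was the 1 called astrocyte marker, and it rose (1.18, edgeR adjusted p = 0.0401). AQP4 measured 594 and 407 CPM in saline, 816 and 418 CPM in ASO and 168 and 129 CPM in OTV, with both OTV animals below the other 4. It fell by 1.76 on the log2 scale against saline (SE 0.39, edgeR adjusted p = 0.0464) and by 1.99 against ASO (SE 0.41, adjusted p = 0.0334). In cluster 6 the log2 changes were -1.15 (adjusted p = 0.167) and -1.61 (adjusted p = 0.0581), and edgeR's test of the difference between clusters gave -0.38 (adjusted p = 0.997) and -0.06 (adjusted p = 1.0). APOE, the 1 called of 7 tested lipid and energy genes, had the levels given above and a log2 change of -3.55 against saline (SE 0.67, edgeR adjusted p = 0.0377) and -4.04 against ASO (SE 0.68, adjusted p = 0.0334). Both OTV animals were the lowest for APOE. Leaving out OTV 3 gave edgeR adjusted p values of 0.446 for AQP4 and 0.173 for APOE against saline. In the potassium and water list AQP4 was the 1 called of 11, and in glutamate handling, adhesion, reactive, patterning and glial transcription factor lists 0 were called in either OTV contrast. With 1.57% and 1.7% of all tested features called in these contrasts, 0 or 1 call in lists of this size is near the background.

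Of the genes called higher after OTV, those named here were near 0 in the other animals or raised several fold. The low-count filter kept features that reached a minimum level in as many animals as a group holds. A gene near 0 in saline and ASO could thus be tested only if it was high in OTV. SPOCK1, the proteoglycan testican-1, measured 11.4 and 7.02 CPM in saline, 60.5 and 69.7 CPM in ASO and 265 and 299 CPM in OTV, and rose by a log2 change of 4.90 against saline (SE 0.60, edgeR adjusted p = 0.0029). DYNC1I1, an intermediate chain of cytoplasmic dynein, measured 0.0, 21.1, 0.0, 11.6, 255 and 403 CPM (4.60, edgeR adjusted p = 0.00739). HHATL, a relative of the acyltransferase HHAT, measured 11.4, 7.02, 0.0, 11.6, 255 and 190 CPM (4.55, edgeR adjusted p = 0.00522). All 3 were highest in both OTV animals, with at most 3 UMIs in a saline animal. They passed the filter through the OTV animals alone, so that their calls are rises is partly set by the filter. Cluster 6 of OTV 2 held 275 CPM of SPOCK1 and 198 CPM of DYNC1I1, above all saline and ASO animals, but 30.5 CPM of HHATL, within their range.

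GOLGB1, the Golgi protein giantin, measured 103 and 126 CPM in saline, 181 and 174 CPM in ASO and 426 and 521 CPM in OTV (2.00 against saline, edgeR adjusted p = 0.0197). KIAA0930 measured 103, 140, 90.7, 116, 538 and 449 CPM (1.97, edgeR adjusted p = 0.0226). Against ASO, the extracellular matrix protein HMCN1 led with 400, 225, 242, 116, 1260 and 1270 CPM (2.94, edgeR adjusted p = 0.0138). ELMO1, an activator of the GTPase Rac, measured 103, 197, 30.2, 46.5, 398 and 472 CPM (3.34, edgeR adjusted p = 0.0163). KCNIP1, a calcium-binding partner of Kv4 channels, and NKAIN2, a partner of the sodium pump, rose by 2.50 and 2.88 against ASO. NKAIN2 was named above as far higher in oligodendrocytes. In all genes of this paragraph both OTV animals lay above the other 4, which the choice of genes without overlap largely sets.

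**Figure D5:**
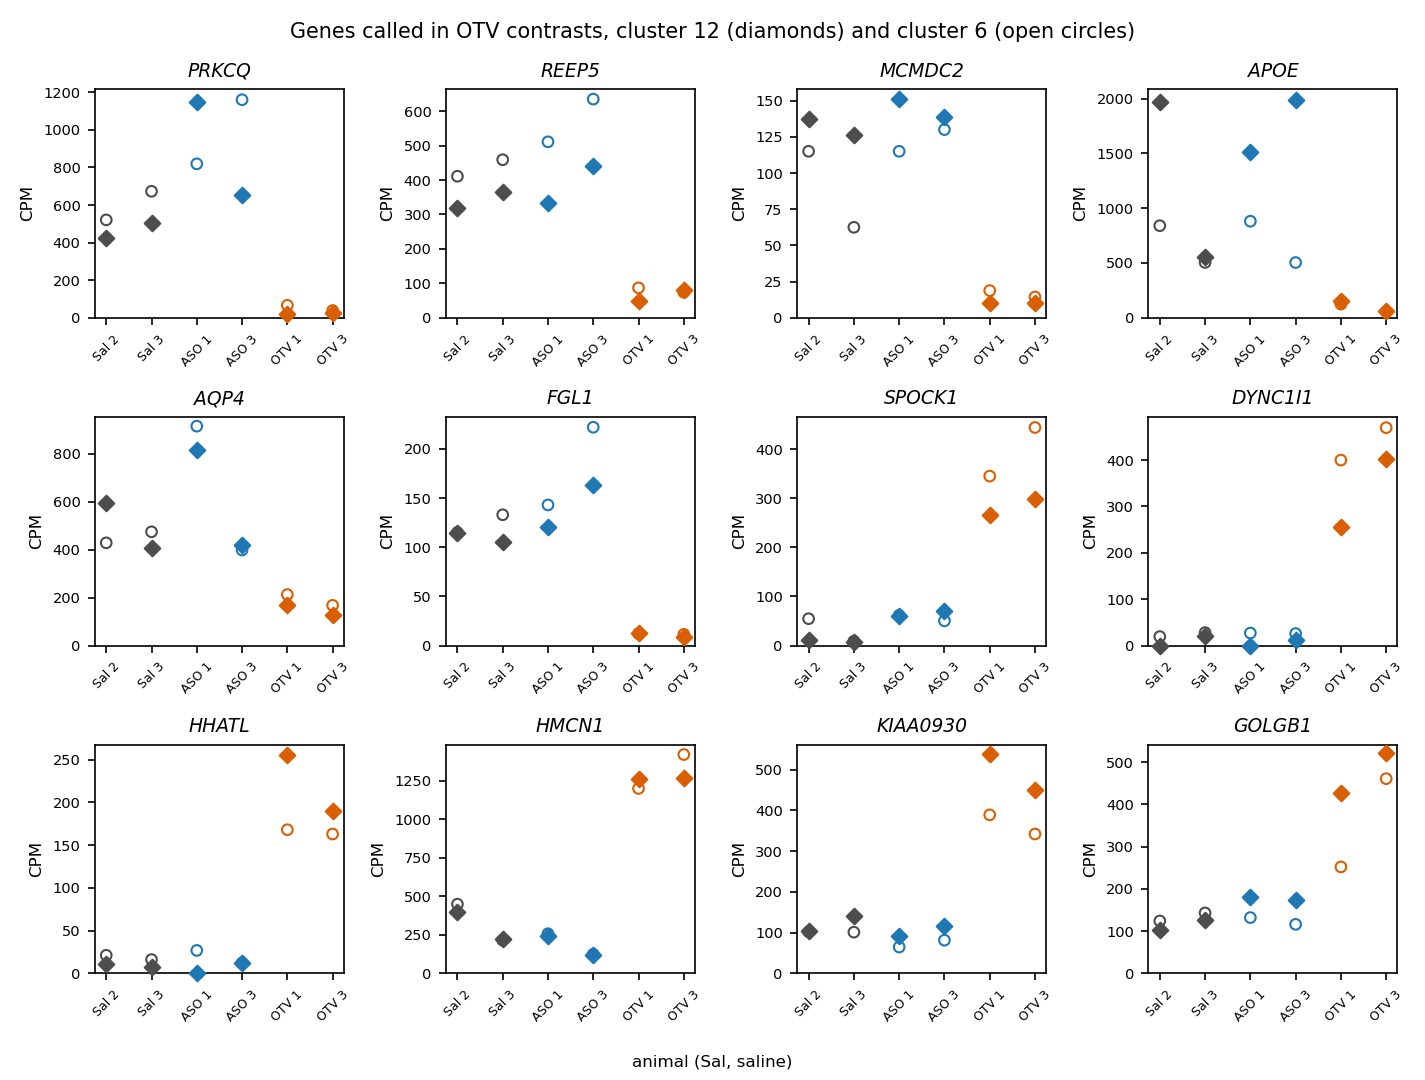
CPM by animal of 12 genes called in an OTV contrast, in cluster 12 (filled diamonds) and in cluster 6 (open circles), coloured by group, with axes that start at 0. Most were picked by a rule that asks for no overlap of the groups compared. The gap between both OTV animals and the 4 saline and ASO animals in cluster 12 is thus largely set by that choice. Cluster 6 shows the same direction. The called genes DPP10 and WDR49 are not shown, and WDR49 was as low in ASO 1 as in OTV.

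Mitochondrial genes moved with the groups too. ND1 measured 11.4 and 14 CPM in saline, 0.0 and 0.0 in ASO and 204 and 122 CPM in OTV, and rose against saline (log2 change 3.56, edgeR adjusted p = 0.0263), as 1 of 5 tested mitochondrial genes, where 0.598% of all features were called higher. Against ASO 3 of 5 rose, ND1, CYTB and COX3, where 0.756% of all features were called higher. In cluster 12 ND1 and CYTB passed the low-count filter only through their levels in the OTV animals. These counts are thus partly set by the filter, and the shares over all features are no fair background for them. In cluster 6 of the same animals 8 of 12 rose against saline and 12 of 12 against ASO, where 0.709% and 3.6% of all features were called higher. ND1 and CYTB had 0 UMIs in the 119153 UMIs of ASO members, so the OTV level was at least 6.48-fold and at least 7.98-fold higher than the 25.2 CPM that 3 counts over the group stand for. Beside the OTV contrasts other values differed as well. The members of OTV 1 and OTV 3 gave 392310 and 474268 UMIs and the other 4 animals 33072 to 142467. The summed unnamed features stood at 10800 and 20800 CPM in OTV and at 1170 to 2450 CPM elsewhere. The telencephalic patterning list stood at 247 to 365 CPM in OTV, 423 to 1180 in saline and 423 to 1240 in ASO, with DLX1 and DLX2 at 0, and the oligodendrocyte list at 1720 to 1940, 1010 to 1150 and 937 to 1780 CPM. The part of these in the called genes was not tested.

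The calls of cluster 12 were set beside cluster 6. All 19 higher and 31 lower features of OTV against saline had the same sign in cluster 6 of the same animals, and 8 and 20 were also called there. For OTV against ASO all 24 and 30 had the same sign, and 18 and 25 were called. These are the same animals, so the agreement says nothing of other animals. No share of all 3176 features with the same sign stands beside these counts, so they cannot be read as particular to the called features. OTV 2, which entered cluster 12 fits only where animals of 5 and 9 members were added, offered another view through its 175 cluster 6 nuclei. For OTV against saline, 17 of the 19 higher features (89.5%) and 27 of the 31 lower ones (87.1%) lay in OTV 2 beyond all 6 saline and ASO animals in the called direction. Over all 3176 features tested, 31.5% lay above and 22.5% below all 6 in that animal.

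The test of the difference itself asked whether a treatment change in cluster 12 differed from that in cluster 6, with the animal as a block, over 12068 features. edgeR called 3 features between ASO and saline, all with the lower change in cluster 12 (0.0249%), and 2 between OTV and saline, again lower (0.0166%). Between OTV and ASO it called 7 (0.058%), 6 higher (0.0497%) and 1 lower (0.00829%). With DESeq2 size factors the last count was 5, with 3 higher and 2 lower, and the median difference over all 12068 features was 0.25 in the TMM fit, so the split of these calls into higher and lower depends on scaling. The DESeq2 Wald test called 0 in each, with 232, 152 and 263 at an unadjusted p under 0.05. Few of the treatment changes could thus be told apart between the clusters. The SEs and p values of these edgeR calls rest largely on a spread shared over genes, and may not reflect the spread of each gene between animals. The genes and their values by animal are among the results for a closer look, and GFAP is the 1 member of the fixed lists among them. GFAP measured 251, 105, 544, 139, 138 and 90.7 CPM in cluster 12 and 286, 124, 645, 236, 66.9 and 61.0 CPM in cluster 6, a difference in the OTV against ASO change of 1.57 on the log2 scale (SE 0.34, edgeR adjusted p = 0.00643), and it lost this call in 9 of 12 alternatives. OTV animals were above cluster 6 in cluster 12 and the other 4 were below it, but OTV 2, not part of the fit, held 1020 CPM in cluster 6.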

How the data were processed

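The authors deposited 1 matrix of raw UMI counts for 29128 features (14893 with a gene symbol) and a table of nuclei with cell type, cluster, a doublet score and the percent of ribosomal counts; all value columns were mapped and 0 were left unmapped. Cell Ranger 6.1.2, Seurat 4 and the human build GRCh38.p13 are named in the submitters' processing notes, without their roles. Features without a symbol carry Macaca fascicularis identifiers (ENSMFAG), so the build behind the counts could not be settled; the doublet caller is not stated in the labels or files.

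UMIs were summed per animal and cluster. CPM are UMIs per 1000000 UMIs of the sum, and ratios use a pseudocount of 5 CPM. Contrasts used edgeR 4.0.16 in R 4.3.3 (TMM, filterByExpr, robust quasi-likelihood, Benjamini-Hochberg over all features tested, called at an adjusted p under 0.05), with DESeq2 1.42.0 as an alternative, after the steps were tested on simulated data. All 3 groups shared 1 estimate of spread. SEs were derived from the fold change and its F statistic. MALAT1 was compared with exact permutation tests. Wilson intervals are at 95% and cover counting error only.

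Named genes are MALAT1, leading members of the lists, the 15 higher and 15 lower genes with the largest ratio and 1 sign in all animals, and per contrast up to 5 rising and 5 falling called genes without overlap of the groups; others were chosen after their values were seen. The members and lists were chosen with earlier results of these data known. Genes of the lists that are not in the files, such as MBP, were not analysed here, and 2 measured genes are not reported here.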

Additional observations from a re-analysis of the deposited data

Results flagged for a closer look

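These genes had a treatment change that differed between cluster 12 and cluster 6 in edgeR's test of the difference, and most rest on few UMIs in cluster 12. Levels are given for Saline 2, Saline 3, ASO 1, ASO 3, OTV 1 and OTV 3 in that order, and differences are on the log2 scale, cluster 12 minus cluster 6.

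For ASO against saline the difference of CLSTN2, a calsyntenin, was -3.23 (edgeR adjusted p = 0.00341), and for OTV against saline it was -2.89 (adjusted p = 0.0258). CLSTN2 measured 0.0, 204, 90.7, 69.7, 20.4 and 4.22 CPM in cluster 12 and 11.2, 22.6, 17.2, 151, 18.5 and 12.1 CPM in cluster 6. Saline 3 alone, with 29 UMIs, was high in saline, and without it the fitted differences were 7.0 and 7.44, values without a scale because the 1 saline animal left had 0 UMIs. DCC, the netrin receptor, differed by -1.38 for ASO against saline (edgeR adjusted p = 0.0117), with 594, 611, 333, 349, 879 and 557 CPM in cluster 12 and 548, 197, 470, 426, 626 and 414 CPM in cluster 6. DCC lost its call in 10 of 12 alternatives, with differences from -2.06 to -0.542. The fitted difference of SPHKAP, an anchoring protein of protein kinase A, was -12.8 (edgeR adjusted p = 0.0117), a value without a scale because both ASO animals had 0 UMIs in cluster 12. In cluster 12 SPHKAP had 1 UMI (11.4 CPM) in Saline 2 and 10 UMIs (70.2 CPM) in Saline 3, and in cluster 6 it measured 1.95, 3.57, 5.48, 42.2, 4.14 and 5.36 CPM, high in ASO 3 alone. Without Saline 3, or without ASO 3, the call was lost.

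For OTV against ASO the difference was 2.15 for ST6GALNAC3, a sialyltransferase (edgeR adjusted p = 0.00239), with 114, 295, 30.2, 116, 257 and 297 CPM in cluster 12 and 144, 148, 53.5, 250, 152 and 147 CPM in cluster 6. It was 1.27 for PNISR, a splicing-related protein (adjusted p = 0.00239), with 572, 632, 333, 407, 1060 and 1560 CPM in cluster 12 and 577, 540, 520, 593, 739 and 1160 CPM in cluster 6. ERBIN, a scaffold of ERBB2, differed by 1.38 (adjusted p = 0.00643), and GFAP by 1.57 with the levels given in the report. NRXN3, a neurexin, differed by 2.42 (adjusted p = 0.00643), with 2 and 8 UMIs in ASO 1 and ASO 3, and cluster 6 held 5.49 CPM in ASO 2 and 816 CPM in OTV 2, neither of them in the fit.

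The remaining features are named because so few were called. ENSMFAG00000062094 differed by -1.07 for OTV against saline (edgeR adjusted p = 0.0169) and by -1.22 for OTV against ASO (adjusted p = 0.00643), with 1620, 218, 514, 674, 319 and 190 CPM in cluster 12 and 694, 121, 336, 183, 293 and 220 CPM in cluster 6. MTF2, a Polycomb-like protein, had a fitted difference of 10.6 for OTV against ASO (adjusted p = 0.0275), again without a scale, because ASO members had 0 UMIs, and its OTV mean of 76.6 CPM was at least 3.04-fold higher than 3 counts over the ASO group.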

How the results depend on the processing

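Counts of called features depended on filter, depth and single animals, and the number of features tested changed with these settings too. For ASO against saline the count was 3 without the filter on low counts and 0 to 10 leaving out 1 animal. For OTV against saline (50) it was 255 without the filter, 107 with at least 20 nuclei an animal, 30 after thinning, 96 with both groups alone, and 26 (without OTV 3) to 222 (without Saline 2) leaving out 1 animal. For OTV against ASO (54) it was 302 without the filter, 34 after thinning, 107 with both groups alone, and 10 (without ASO 3) to 279 (without Saline 2). Tests of the difference between clusters were fragile: for ASO against saline (3) the DESeq2 Wald test and thinning gave 0 and single animals 0 to 8. For OTV against saline (2) no filter, DESeq2 and thinning gave 0, at least 5 nuclei an animal gave 1, and single animals gave 0 to 3. For OTV against ASO (7) no filter gave 1, DESeq2 0, thinning 2, at least 5 nuclei an animal 0, and single animals 0 to 17. Fits without 1 animal leave a group with 1 sample, which is assumed to vary like the others. The cause of these moves was not tested.

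Over all alternatives, the CLSTN2 differences ran from -3.75 to 7.0 for ASO against saline and from -3.97 to 7.44 for OTV against saline. They reversed without Saline 3 alone. The MALAT1 log2 ratio of cluster 12 to cluster 6 reversed to -0.112 with TMM factors. Against cluster 6 nuclei of like depth in 3 animals, 4 of 33 ratios reversed, CIRBP to -0.057, MFN1 to 0.168, EFR3A to 0.0154 and EYA1 to 0.183. Of 14 alternatives for OTV against saline, PRKCQ and DYNC1I1 lost their call in 0, WDR49 in 2, DPP10 in 3, and AQP4 and APOE in 4 each. At least 5 nuclei an animal, like depth and the limit of 200 CPM were chosen after seeing the data. At least 20 nuclei an animal was not run for the ASO contrasts, because it leaves ASO with 1 animal and equals the fit without ASO replicate 1. No paired analysis was possible because replicate numbers follow the order of the samples and tie no animals across groups. Of the genes whose change differed between clusters, DCC lost its call in 10 of 12 alternatives, GFAP and ERBIN in 9, ST6GALNAC3, PNISR and NRXN3 in 7 and SPHKAP in 6, and CLSTN2 lost it or reversed in 6 of 12 for ASO against saline and in 7 of 13 for OTV against saline. With fewer and shallower nuclei, 3176 features could be tested in cluster 12 against 13971 in cluster 6.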
